A study of Mus musculus with 41 samples.

Results

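The replication-dependent histone genes encode the core histones H2A, H2B, H3 and H4 and the linker histone H1 that package DNA as it is copied. They were chosen by symbol among protein-coding RefSeq genes of mouse build mm10 on chromosomes 1 to 19 (H2ac, H2bc, H3c or H4c with a number, H1f1 to H1f6, and the older Hist names). The rule found 63 genes among 20665 on those chromosomes, or among 21887 with the sex chromosomes included, and used no measured value. By family they were 6 H1, 17 H2A, 16 H2B, 12 H3 and 12 H4 genes. They lay in 3 clusters. The chromosome 13 proximal cluster held 22 genes from H2bc13 to H2bc11 (chr13:21715711-22043658), the chromosome 13 distal cluster held 31 from H4c8 to H2ac1 (chr13:23531044-23934913), and the chromosome 3 cluster held 10 from H2ac21 to H2bc18 (chr3:96219885-96270192). No member overlapped another protein-coding gene in the table.

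Most replication-dependent histone genes are short, have no intron and are transcribed mainly in S phase, when new chromatin is built. Their mRNAs end in a stem-loop bound by SLBP instead of a poly(A) tail. The coactivator NPAT gathers at the clusters, and HINFP recruits it to H4 promoters. Mammals carry many near-copies of each histone gene, and a few members, such as the linker histone gene H1f6 and the pair H2ac1 and H2bc1, are known for expression in the testis.

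Regions of 6 histone modifications had been mapped by ChIP-seq in chondrocytes sorted by flow cytometry from mouse embryos, to compare proliferating with hypertrophic cartilage cells. PC libraries came from E13.5 embryos with the Cre transgene Tg(Col2a1-cre)1Star, and HC libraries from E15.5 embryos with Tg(Col10a1-cre)1427Vdm. Both carried the EYFP reporter allele Gt(ROSA)26Sortm1(EYFP)Cos, and cell type, age and Cre line changed together and cannot be told apart. The Cre driver marks every cell that has once been active for the Col2a1 or the Col10a1 transgene, and their descendants. Each mark had 3 PC and 2 HC libraries, named here by cell label and replicate number, and the numbers differ between marks. The labels do not say whether libraries came from separate litters, so a p-value reflects the spread among the libraries at hand, and that spread may be technical. H3K4me3, H3K9ac and H3K27ac sit at active promoters, and H3K36me3 is laid down along transcribed gene bodies. Polycomb complexes deposit H3K27me3 at silent genes, while H3K9me3 is typical of heterochromatin.

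The hypertrophic markers gave mixed answers to the HC label, and their summed active marks lay lower in HC. Over Col10a1, Ihh, Runx2, Mmp13 and Spp1 together, H3K4me3 coverage summed to 64.35 to 134 points in PC and 30 to 59.35 in HC. The sums were 64.35 to 99.35 and 5 to 15 for H3K9ac, and 70 to 80 and 0 to 30 for H3K27ac. Col10a1, the collagen gene whose promoter drives the HC Cre, had a promoter fully or almost fully covered by H3K27me3 in HC2 and HC3 (100% and 99.5%) and uncovered in the 3 PC libraries (limma adjusted p = 0.012). Its H3K4me3 coverage was 0% in HC2 and 10% in HC5 and 0% in PC, its H3K9ac 5% and 15% in HC and 0% in PC, and its H3K27ac 30% in HC5, 0% in HC7 and 0% to 5% in PC. H3K36me3 over the Col10a1 gene was higher in both HC libraries, at 88.7% and 77.5%, than in PC4, PC5 and PC6, at 60.3%, 0% and 49.05% (limma unadjusted p = 0.0416, adjusted p = 0.741). Col10a1 lies within its host gene Nt5dc1, and the part of Nt5dc1 in this H3K36me3 was not tested. Runx2, a regulator of hypertrophy, had H3K27ac of 75%, 59.4% and 70% in PC and 0% in both HC libraries. Mmp13 had no H3K4me3 and no H3K27ac in any library. The chondrocyte genes Col9a1 and Matn1 lost H3K27ac from 93.4% and 93.3% in PC to 0% in HC (limma adjusted p = 0.0185 and 0.0219), and Sox9 gained H3K27me3 (adjusted p = 0.0154). The muscle gene Myf6 lost H3K27me3 in HC (adjusted p = 0.0157), and the summed H3K27ac coverage of 5 muscle markers was 19.7 to 45 points in PC and 79.7 to 154 in HC. The H3K27ac sums of epidermis (25 to 55 in PC, 5 to 90.4 in HC), endothelium (35 to 75, 47.5 to 115) and blood (55 to 110, 80.6 to 90) overlapped. In H3K4me3 epidermis lay higher in HC (20 to 30, 62.9 to 148) and muscle, endothelium and blood overlapped. In H3K9ac muscle, endothelium and blood lay higher in HC and epidermis overlapped. PC and HC therefore stand below for the labels, and the part of cell makeup in any difference was not tested. The authors' lists give coordinates without scores, so a value here is the percent of a window that lies in regions, and read depth is unknown.

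Histone promoters carry short DNA elements that recur within a family, and 4 were searched in the 300 bases that RefSeq lists for each start in build GRCm38.p6, the assembly of mm10, from 250 before to 50 after it. There were 59 listed starts for 58 of the 63 members. H2bc21, H4c14, H3c7, H2bc4 and H3c1 have no entry. The letters CCAAT, on either strand, were in 100% of the H1, H2A, H2B and H3 promoters and in 27.3% of the 11 H4 promoters, against 38.2% of 21263 promoters of protein-coding genes. TATAAA was in 57.6% of the histone promoters against 12.6% of all. The octamer ATTTGCAT, the binding letters of POU2F1, was in 46.7% of 15 H2B and 35.3% of 17 H2A promoters and in none of the 27 of H1, H3 and H4, against 1.66% of all. GGTCC, part of the H4 promoter element that HINFP binds, was in 90.9% of the H4 promoters, 42.4% of the histone promoters together and 49.0% of all. A match is a description of the letters and not a binding site.

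There were 9 listed pairs of an H2A and an H2B gene that pointed away from each other, with starts 164 to 281 bp apart (median 180), so each pair shared 1 promoter stretch. The stretches between the starts are shown for a pair covered in all libraries (H2bc7/H2ac7), a pair with both TATAAA and the octamer (H2ac8/H2bc8), a pair almost without active marks (H2bc23/H2ac23) and the testis pair (H2bc1/H2ac1). Each is on the plus strand, and capitals mark a match to any of these 4 sets of letters on either strand.
H2bc7/H2ac7, chr13:23574208-23574380: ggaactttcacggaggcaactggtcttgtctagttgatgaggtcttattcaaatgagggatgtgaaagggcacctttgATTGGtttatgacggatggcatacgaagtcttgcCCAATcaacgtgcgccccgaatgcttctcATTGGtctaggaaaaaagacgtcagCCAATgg
H2ac8/H2bc8, chr13:23571221-23571399: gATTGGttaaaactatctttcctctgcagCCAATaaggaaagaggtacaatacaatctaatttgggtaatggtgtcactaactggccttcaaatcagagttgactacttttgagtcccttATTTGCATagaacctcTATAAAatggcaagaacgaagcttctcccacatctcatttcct
H2bc23/H2ac23, chr13:21810200-21810366: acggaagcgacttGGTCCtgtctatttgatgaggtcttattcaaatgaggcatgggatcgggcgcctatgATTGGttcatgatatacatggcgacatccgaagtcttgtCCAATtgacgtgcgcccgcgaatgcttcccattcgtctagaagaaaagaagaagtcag
H2bc1/H2ac1, chr13:23934187-23934436: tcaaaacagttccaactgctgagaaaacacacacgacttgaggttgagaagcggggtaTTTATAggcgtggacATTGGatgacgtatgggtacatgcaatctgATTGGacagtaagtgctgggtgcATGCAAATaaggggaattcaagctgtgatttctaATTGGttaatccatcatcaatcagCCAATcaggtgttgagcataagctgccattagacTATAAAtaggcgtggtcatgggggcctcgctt
The last is the 250 bases nearest H2ac1. The testis pair's stretch held the octamer together with TATAAA and with CCAAT, and had no active mark. The H2bc23/H2ac23 stretch held CCAAT and also GGTCC.

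A pair of members with copied promoters are shown because their region lists were nearly empty. The 150 bases before the starts of H4c17 (plus strand) and H4c18 (minus strand) read the same with a shift of 1 base.
H4c17, chr13:21811596-21811745: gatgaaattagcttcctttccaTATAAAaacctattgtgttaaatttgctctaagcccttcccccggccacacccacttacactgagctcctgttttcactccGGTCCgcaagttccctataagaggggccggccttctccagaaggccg
H4c18, chr13:21832198-21832347: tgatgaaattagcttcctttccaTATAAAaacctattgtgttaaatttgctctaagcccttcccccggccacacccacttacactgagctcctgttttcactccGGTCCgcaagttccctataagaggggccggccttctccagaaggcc
Their 300-base promoters shared a run of 285 bases. Shared words of 50 bases with any listed promoter that did not overlap were found for 11 of the 59 promoters. In 9 they made up at least 50% of the 251 words of the promoter: H2bc23 (100%), H4c17 and H4c18 (94.0% each), H2ac23 (86.9%), H2ac24 (73.3%), H3c14 and H3c15 (74.1% each), and H2ac18 and H2ac19 (67.7% each). H4c11 and H4c12 shared 11.6%, and the other 48 shared none. Reads that lie wholly within such shared stretches cannot be assigned to one copy by sequence alone, and how the authors treated such reads is not given in the sources used here.

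Most histone genes were covered by all 3 active marks in every library of both labels. A promoter, the 2 kb on each side of a start, counted as marked with 200 bp or more in regions. H3K4me3 marked 56 of the 63 in all 5 libraries (88.9%, against 61.3% of all protein-coding genes), H3K9ac 55 (87.3% against 53.4%) and H3K27ac 54 (85.7% against 53%). All 3 marks in all 15 libraries were found at 53 members (84.1%), against 50.6% of all genes and 95.1% of 81 ribosomal protein genes, which every growing cell transcribes. Neighbouring promoters share windows, since the 63 windows merge into 29 separate stretches, so members are not independent of each other. The counts depend on region width: with every list of a mark cut to the covered length of the shortest by dropping its narrowest regions, 28, 29 and 24 members stayed marked in all 5. The share of all genes under this cut was not computed, so whether the members still exceed all genes there was not tested.

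**Figure D1:**
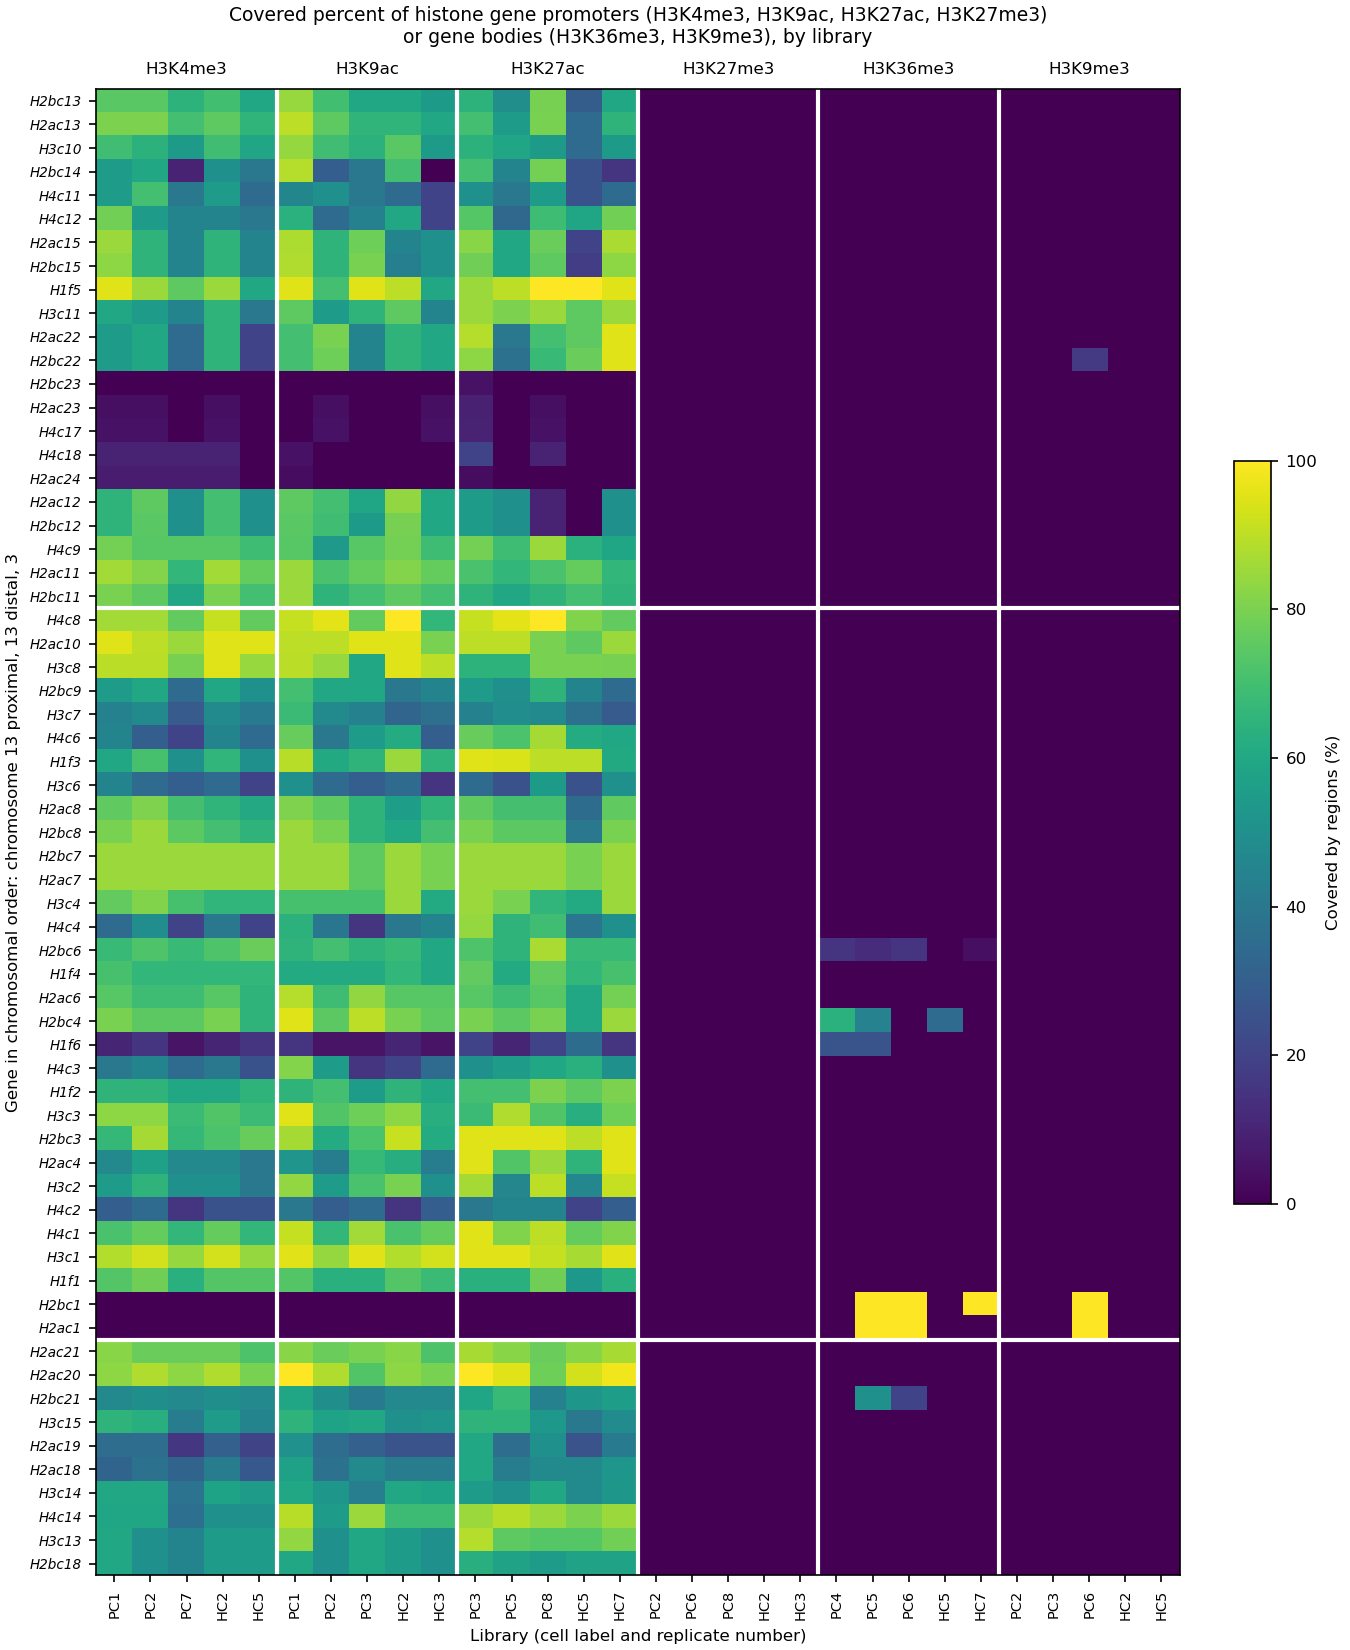
Covered percent of each of the 63 histone genes (rows, in chromosomal order, white lines between clusters) in each of the 30 libraries (columns, grouped by mark), for promoters of 2 kb on each side of the start (H3K4me3, H3K9ac, H3K27ac, H3K27me3) or gene bodies (H3K36me3, H3K9me3). The 3 active marks cover most rows in PC and HC alike, H2bc23 to H2ac24 and H2bc1 with H2ac1 are dark, and H3K27me3 is 0 throughout.

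The linker histone genes H1f1 to H1f5 are the somatic H1 genes and H1f6 is the testis form. H3K4me3 covered 60.3% ± 10.4 (SD, n = 3) of the H1f3 promoter in PC and 57.9% ± 11.2 (SD, n = 2) in HC. H1f5 had 85% ± 10 in PC and 72.5% ± 17.7 in HC, H1f1 71.7% ± 7.64 and 73.3% ± 0, H1f4 67.7% ± 2.89 and 66.1% ± 0, and H1f2 63.4% ± 2.84 and 62.6% ± 3.43 (SD, n = 3 and n = 2). The 5 somatic genes thus lay between 57.9% and 85% in both labels, and PC and HC libraries overlapped for each. H1f6 stood far below them, with 10.3%, 15.3% and 5.25% in PC1, PC2 and PC7 and 10.3% and 15.3% in HC2 and HC5. Its H3K27ac was 20.3%, 10.3% and 20.3% in PC3, PC5 and PC8 and 35.3% and 15.3% in HC5 and HC7. Neither mark separated the labels at H1f6. The gene itself was covered by 0% to 27.2% over the 15 libraries of the active marks, with a median of 0%.

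Core histone families differed in how much of the window was covered. The median H3K4me3 coverage of the H2A genes was 65% in PC and 60% in HC, of the H2B genes 63.8% and 57.5%, and of the H3 genes 56.7% and 55.7%. The H4 genes were the lowest family, with 45.9% in PC and 41.3% in HC, and library medians from 35% to 52.1%. H3K27ac did not set H4 apart in that way: its median was 65.8% in PC and 58.8% in HC for H4 and 64.0% and 56.0% for H2B. Leaving aside H4c17 and H4c18, described below, H4 genes ranged in H3K4me3 from 30%, 35% and 15% in PC1, PC2 and PC7 and 25% in both HC libraries at H4c2 to 86.1%, 86.1% and 76.1% in PC and 91.1% and 76.1% in HC at H4c8. No library of H4c2 reached the lowest of H4c8.

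The clusters' outermost genes were covered at both ends of 2 clusters. H2bc13 and H2bc11, the first and last of the proximal cluster, had H3K4me3 means of 71.2% ± 5.77 and 71.7% ± 10.4 in PC (SD, n = 3) and 64.6% ± 7.07 and 75.1% ± 7.07 in HC (SD, n = 2). H2ac21 and H2bc18, which bound the chromosome 3 cluster, had 78.8% ± 2.89 and 51.7% ± 7.64 in PC and 74.6% ± 3.54 and 55% ± 0 in HC. The distal cluster opened with H4c8 at 82.7% ± 5.77 in PC and 83.6% ± 10.6 in HC and closed with the testis pair, which had none. The most even pair of all was H2bc7/H2ac7, at 85% in each of the 5 H3K4me3 libraries. Across clusters the median H3K4me3 coverage was 69.0% in PC for the distal, 61.1% for the proximal and 51.7% for the chromosome 3 genes.

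Across the 63 members the active marks followed each other. Spearman's rho between H3K4me3 and H3K9ac was 0.92 in PC and 0.93 in HC, between H3K9ac and H3K27ac 0.79 and 0.78, and between H3K4me3 and H3K27ac 0.73 and 0.67. The rho between PC and HC means was 0.96 for H3K4me3, 0.91 for H3K9ac and 0.86 for H3K27ac. These describe 63 genes that share windows and list lengths.

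The active marks were absent or sparse at 7 members in 2 groups. By the 200 bp rule, H2bc1, H2ac1 and H2bc23 were marked in none of the 15 libraries, and H2ac23, H4c17, H4c18 and H2ac24 in some. The testis pair H2bc1 and H2ac1 lies 169 kb beyond H1f1, and its promoters were 0% covered in all 15 libraries of H3K4me3, H3K9ac and H3K27ac. H3K36me3 covered the whole H2bc1 gene in PC5, PC6 and HC7 and the whole H2ac1 gene in PC5 and PC6, and neither gene in the other libraries. H3K9me3 covered both genes fully in PC6 and in no other library. PC6 was the H3K9me3 list with the most regions, 155011 against 47125 to 91980 in the other 4, and the H3K36me3 list with the longest covered length was also PC6, 612 Mb against 379 to 482 Mb. H3K27me3 was absent from the pair in all 5 lists. The germ cell genes Ddx4, Dazl, Dnd1, Stra8 and Sycp3 were listed for comparison, and 4 of the 5 had H3K4me3 at the promoter in no library.

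The other group was H2bc23, H2ac23, H4c17, H4c18 and H2ac24 in the proximal cluster (chr13:21806412-21833475), 5 of the 9 genes whose promoters shared at least 50% of their words with another promoter. H2bc23 had no H3K4me3 or H3K9ac in any library and 4.95% H3K27ac in PC3 alone. H4c18 had 10% H3K4me3 in PC1, PC2, PC7 and HC2 and 0% in HC5, and H2ac24 had 8.15% in the same 4 libraries and 0% in HC5. H4c17 and H2ac23 had 5% and 4.15% in PC1, PC2 and HC2 and 0% in PC7 and HC5. All values were far below the members on either side: H2bc22 had 55%, 60% and 35% in PC and 65% and 20% in HC, and H2ac12 65%, 75% and 50% in PC and 70% and 50% in HC. Over the 27.1 kb from H2bc23 to H2ac24, regions of H3K4me3 covered 0% to 2.96% of the sequence, of H3K9ac 0% to 0.739% and of H3K27ac 0% to 5.91%, and H3K27me3, H3K36me3 and H3K9me3 covered 0% in every library. The part of read assignment in this was not tested.

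**Figure D2:**
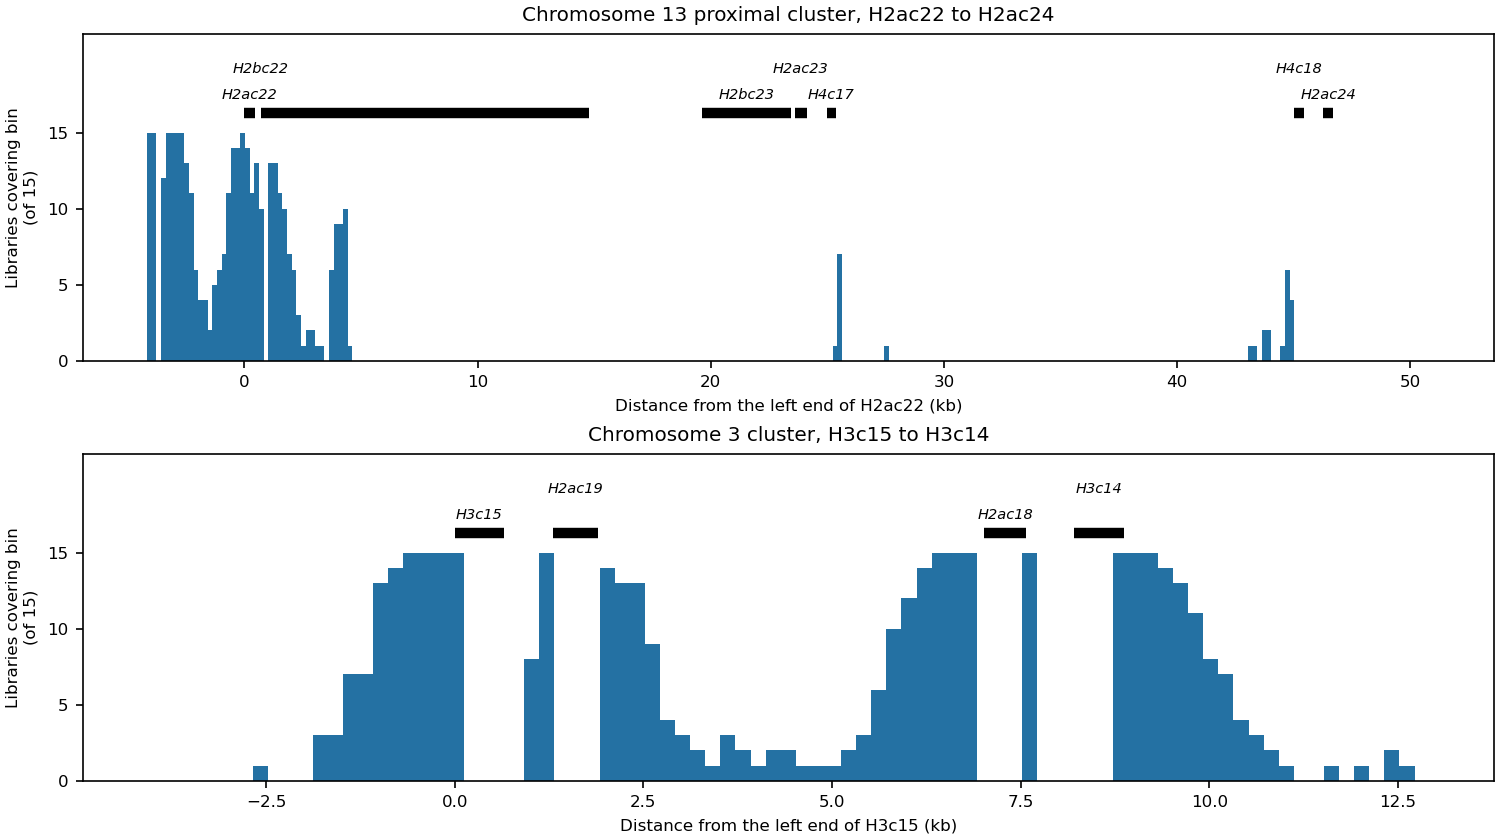
Number of the 15 H3K4me3, H3K9ac and H3K27ac libraries with a region over each 200 bp bin (bars), by distance in kb from the left end of the first gene, with gene bodies as black blocks. From H2bc23 to H2ac24 no bin reaches 8 libraries, and around H3c15, H2ac19, H2ac18 and H3c14 bins with 15 of 15 libraries border bins with 0 of 15.

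The chromosome 3 copies H3c15 with H2ac19 and H2ac18 with H3c14 (chr3:96238479-96247348) showed both states side by side. Their promoter windows were marked in all 15 libraries of the active marks, with H3K4me3 of 65%, 63.2% and 41.9% in PC and 55% and 45% in HC at H3c15, and of 60%, 60% and 37.9% in PC and 57.9% and 55% in HC at H3c14. The gene itself was covered by 18.8% at H3c15, 3.69% at H2ac19, 9.35% at H2ac18 and 22.3% at H3c14, the same value in each of the 15 libraries.

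Coverage was broken at fixed places in many other histone genes. Among the 53 members with all 3 active marks, 48 had a listed start. Of these, 25 (52.1%) had within 2 kb of the start a 200 bp bin that lay in regions of 0 of 15 libraries while the bins on both sides lay in regions of at least 8. Of 8883 other genes with the 3 marks in all libraries and a listed start, 22 did (0.248%), and of 57 ribosomal protein genes 1 did. A gap wider than 1 bin does not count. H3c15, H2ac19, H2ac18 and H3c14 are thus among the members without such a bin, though little of each gene was covered. The bin overlapped the gene itself at 15 members. By family it was found at 8 of 10 H2B, 8 of 13 H2A, 5 of 10 H3, 3 of 9 H4 and 1 of 6 H1 genes. Windows of neighbours overlap, so 1 bin can count for several members and families. Over the gene itself it lay at 5 H2B, 4 H2A, 5 H3, 1 H4 and 0 H1 genes.

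Coverage of the gene as a whole was also partial at many members, with or without an empty bin of that kind. H2ac10 and H3c3 had no such bin and medians of 60.3% and 58.3%. H3c1 has no listed start and was not searched for the bin. Among the 58 members of 1000 bp or less, the median over the 15 libraries was full coverage at 9 of 12 H4 and 4 of 6 H1 genes, 6 of 17 H2A and 5 of 11 H2B genes, and 0 of 12 H3 genes. H3c4 was covered by 60.3%, H3c1 and H3c13 by 60.2%, H2ac6 by 58.9% and H2ac11 by 57.6%, each the same in all 15 libraries. With the 4 chromosome 3 copies, 9 genes had 1 value between 0% and 100% in all 15 libraries. Others were constant at full coverage (H1f2, H1f4, H1f5, H2ac21 and H4c14) or at 0% (H2bc23, H2ac23, H2ac24, H2bc1 and H2ac1). For 48 of the 59 promoters no 50-base word was shared, and gene bodies were not compared because no genome was used here, so the part of copied coding sequence was not tested.

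The average profile also dipped past the start. In PC, H3K4me3 covered 89.4% of the histone genes in the 200 bp bin centred 100 bp before the start, 80.0% in the bin at +100 bp, 58.9% at +300 bp and 88.6% at +500 bp (51 genes). In HC the bin at +300 bp stood at 60.5%. All genes with H3K4me3 were covered at +300 bp by 96.1% in PC and HC (10682 genes) and ribosomal protein genes by 98.2% (57 genes). H3K27ac dipped to 56.9% at +300 bp in PC and 46.1% in HC, from 86.5% and 75.3% at -300 bp. Far upstream of the start the histone genes were covered more often than the others. At -1900 bp H3K4me3 covered 37.5% in PC and 31.5% in HC, against 7.65% and 7.08% of all genes and 2.15% and 3.798% of ribosomal protein genes. Downstream this did not hold. At +1500 bp the histone genes stood at 37.0% in PC and 34.2% in HC, against 38.0% and 37.1% of all genes and 79.8% and 82.7% of ribosomal protein genes. At +1900 bp they stood at 37.0% and 32.8%, above all genes (23.1% and 22.1%) and below ribosomal protein genes (52.6% and 48.6%).

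**Figure D3:**
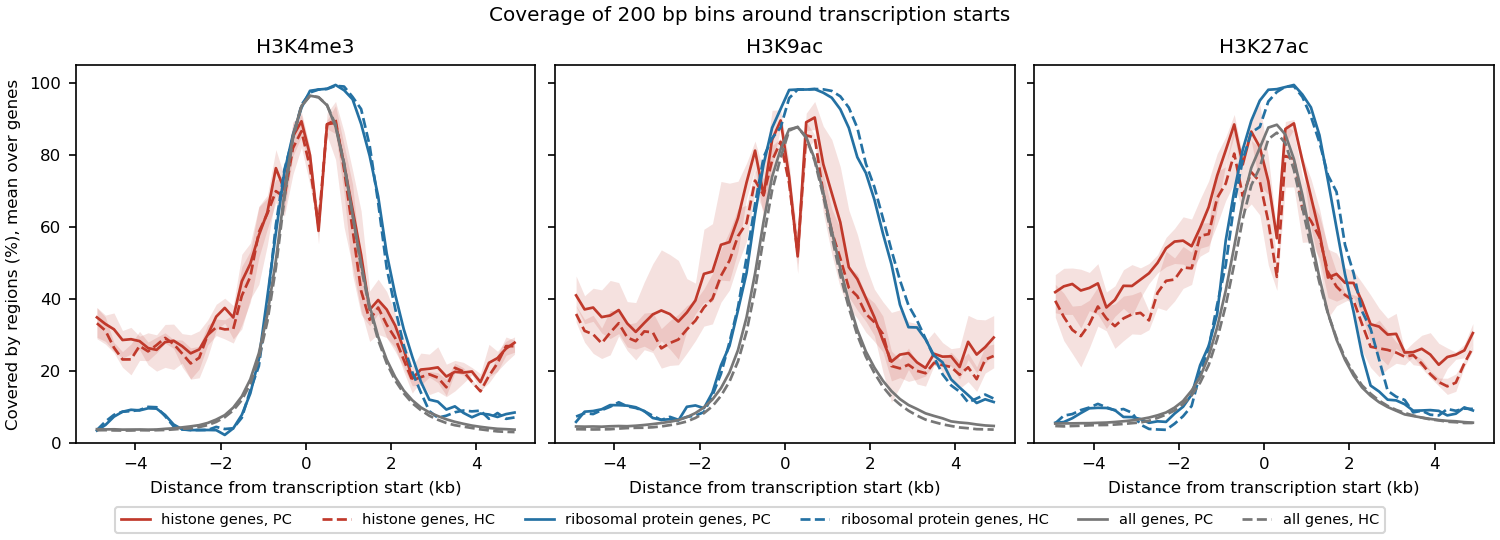
Mean percent of genes covered by regions in 200 bp bins (y) against distance from the transcription start in kb (x) for H3K4me3, H3K9ac and H3K27ac, in PC (solid) and HC (dashed) libraries, with shading from the lowest to the highest library for histone genes. Histone genes (red) dip at +300 bp, to 58.9% for H3K4me3 in PC, where ribosomal protein genes (blue, 98.2%) and all genes (grey, 96.1%) do not dip.

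Regions over histone promoters were also narrower. The region nearest the start had a median width of 1000 to 1800 bp for H3K4me3 over the 5 libraries, against 1800 to 2200 bp for all genes and 2200 to 2800 bp for ribosomal protein genes. The start itself lay in a region at 78.4% to 83.6% of the marked histone genes and at 92.6% to 94.7% of all genes. The lowest library by width was PC7, the shortest H3K4me3 list at 30.3 Mb.

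No histone gene was called different between PC and HC. The limma test on covered percent (moderated linear model, Benjamini-Hochberg adjusted over all genes covered in at least 2 libraries) called 0 of 60 members for H3K4me3 (0.00704% of all genes tested), 0 of 58 for H3K9ac (0.0074%), 0 of 59 for H3K27ac (0.0144%) and 0 of 6 for H3K36me3 (0%). For H3K27me3 (4.06%) and H3K9me3 (0%) no member was covered in 2 libraries, so none was tested. With so few calls over all genes, an absence of calls says little about the members. At an unadjusted p under 0.05, 0 members were called for H3K4me3 (against 1.09% of genes higher and 1.32% lower in HC). For H3K9ac 4 were lower (against 3.84%) and 0 higher (against 1.86%), and for H3K27ac 6 were lower (against 5.56%) and 0 higher (against 2.71%). With lists cut to equal covered length these counts changed to 0 lower and 3 higher for H3K9ac (beside 312 and 284 of 12467 genes) and to 3 lower and 2 higher for H3K27ac (beside 425 and 296 of 10844 genes). No member was PC-only, marked in all 3 PC and no HC library (0.24%, 0.736% and 1.15% of genes marked in at least 2 libraries for the 3 active marks), and none was HC-only (0.17%, 0.446% and 0.557%). The same held for H3K36me3 over gene bodies (1.69% PC-only and 0.785% HC-only).

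The H3K27ac promoter difference was greatest at H2bc14, an H2B gene of the proximal cluster. H3K27ac covered 70%, 45% and 78.9% of its window in PC3, PC5 and PC8 and 25% and 15% in HC5 and HC7. Both HC libraries lay below all 3 PC libraries, with a difference of -44.6 points (limma unadjusted p = 0.00408, adjusted p = 0.375). With the window cut to 500 bp on each side H2bc14 was called lower, the 1 member call under any alternative run. That fit tested 57 members, and over all 13242 genes it called 27 lower and 1 higher. Its H3K9ac did not separate the labels, with 88.9%, 30% and 40% in PC and 70% and 0% in HC, nor did its H3K4me3, with 55%, 60% and 10% in PC and 50% and 40% in HC.

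Other members with separated H3K27ac were H4c9, H2bc9, H3c7, H3c15 and the H4 genes given next. H4c4 went from 84.2%, 65% and 69.2% in PC to 39.2% and 50% in HC (limma unadjusted p = 0.0118, adjusted p = 0.447), and H4c8 from 91.1%, 96.1% and 100% to 81.1% and 76.1% (unadjusted p = 0.015, adjusted p = 0.465). H4c11, H4c6 and H4c2 also had unadjusted p under 0.05, with mean differences of -18.3, -17.5 and -18.3 points and adjusted p of 0.531 to 0.597 by limma. In all, 10 of 59 members had both HC values below all PC values (16.9%, against 12.5% of genes) and none above (against 6.35%). A share this near that of all genes is no result about the histone genes.

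For H3K9ac the pair H2ac15 and H2bc15, which share a window of the proximal cluster, was lowest in p. H2bc15 had 88.1%, 65% and 80% in PC1, PC2 and PC3 and 43.1% and 50% in HC2 and HC3, groups that did not overlap (limma unadjusted p = 0.00642, adjusted p = 0.504). H2ac15 read almost the same bases and had a mean of 76.9% ± 11.4 in PC (SD, n = 3) and 47.5% ± 3.54 in HC (SD, n = 2). H4c11 and H2bc9 were the other members with an unadjusted p under 0.05, both lower in HC (adjusted p = 0.86 and 0.691 by limma). Over the list 7 of 58 lay below (12.1%, against 10.3% of genes) and 1, H3c8, above (against 4.38%). For H3K4me3 3 of 60 lay below, H2ac8, H2bc8 and H3c4 (5%, against 4.06%), and none above (against 3.06%).

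The lean toward lower values in HC changed with the length of the lists. The median member difference, HC minus PC, was -1.59 points for H3K4me3, -4.85 for H3K9ac and -5 for H3K27ac, beside -0.833, -1.89 and -2.5 over all genes tested. With lists cut to equal covered length the member medians were 0.75, 3.61 and 2.26 points, beside 0.833, 0.233 and -0.833, so the direction turned for all 3 marks. Members lower in HC numbered 38, 42 and 47 as listed and 23, 23 and 24 of 55, 56 and 54 at equal length. Members with both HC values below all PC values numbered 0 for H3K9ac (7 as listed) and 5 for H3K27ac (10 as listed), and those above 2 and 3 (1 and 0 as listed). At equal length 7.18% and 9.11% of genes lay below and 7.74% above in either mark. The list of HC5 was the shortest for H3K27ac, 46.1 Mb against 70.2 to 98.4 Mb, and in the proximal cluster its median H3K27ac coverage was 27.3%, against 59.3% in HC7 and 49.8% to 68.3% in PC. H2ac12 and H2bc12, for example, had no H3K27ac in HC5 and 50% in HC7, within the PC range of 10% to 55%.

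**Figure D4:**
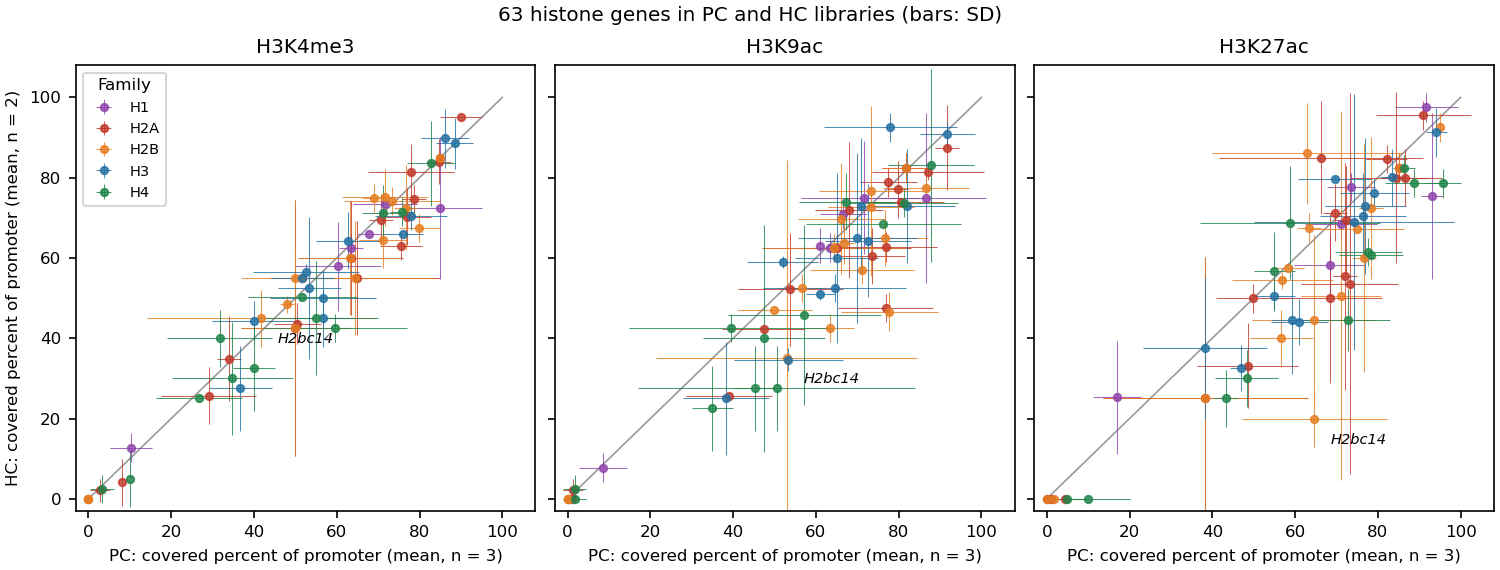
Mean covered percent of each histone gene promoter in HC (y, n = 2) against PC (x, n = 3), with SD bars, for H3K4me3, H3K9ac and H3K27ac, coloured by family, with the line of equal values in grey. H2bc14 lies farthest below the line for H3K27ac, at 64.6% in PC and 20% in HC, and near it for H3K4me3.

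H3K27me3 reached no histone promoter. All 63 windows had 0% coverage in all 5 libraries, where 71.3% of all genes were also at 0 in every library and 14.2% were marked in all 5. The nearest H3K27me3 region lay 11.1 to 12.7 kb from the nearest member, which was H2ac12 or H2bc18. Such regions did lie within the proximal cluster, in the 202 kb without members between H2ac24 and H2ac12, where they covered 30.2%, 29.0% and 27.4% in PC2, PC6 and PC8 and 24.2% and 26.6% in HC2 and HC3. H3K9me3 marked no member in all 5 libraries (against 3.94% of genes), and 60 of the 63 gene bodies had none in any library. It covered 18.6%, 14.7% and 16.7% of the same gap in PC2, PC3 and PC6 and 12.3% and 15.1% in HC2 and HC5. Both marks thus skipped the histone genes on either side of the gap in all libraries, except that H3K9me3 covered 17.05% of the H2bc22 gene in PC6.

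H3K36me3 was nearly absent from histone gene bodies. No member had it over 25% or more of the gene in all 5 libraries (against 42.2% of genes), and 57 of 63 had none in any library, against 32.2% of genes. Short genes in general carried it more often. Among genes of 1000 bp or less with H3K4me3 in all 5 libraries, 1 of 52 histone genes (1.92%) had H3K36me3 in at least 1 library, and 21 of 45 other genes did (46.7%). That histone gene was H1f6, at 25.9% in PC4 and PC5 and 0% in PC6, HC5 and HC7. The regions sit on a grid of 800 bp, wider than most histone genes.

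Any H3K36me3 was found at 6 members, the short genes H1f6, H2bc1 and H2ac1 and the longer entries H2bc4, H2bc6 and H2bc21. H2bc4, listed at 8.28 kb, had 63.8%, 44.4% and 0% in PC4, PC5 and PC6 and 34.8% and 0% in HC5 and HC7. H2bc6, listed at 37.5 kb with 2 starts, had 14.95%, 12.8% and 14.95% in PC and 0% and 4.27% in HC. Both HC values of H2bc6 lay below all PC values (1 of 6 members tested, against 9% of genes), with limma unadjusted p = 0.0248 and adjusted p = 0.657. It was the 1 member lower at an unadjusted p under 0.05, against 3.51% of genes, and 0 were higher, against 2.78%. No member had both HC values above all PC values, against 8.19% of genes. H2bc21 had 50.2% in PC5, 20.2% in PC6 and 0% in the other 3.

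Over the whole spans of the 2 chromosome 13 clusters, stretches without members included, H3K36me3 covered more sequence in PC. In the distal cluster it covered 4.95%, 6.86% and 6.47% in PC4, PC5 and PC6 and 1.98% and 2.38% in HC5 and HC7, groups that did not overlap. In the proximal cluster the PC values were 6.59%, 10.002% and 8.54% and the HC values 5.37% and 5.61%. Much of this lay outside the histone genes. Between H2ac24 and H2ac12, without members, it covered 9.12%, 11.9% and 10.3% in PC and 7.14% and 9.12% in HC, which share a value. Between H1f1 and H2bc1 the values were 0.473%, 9.52% and 7.16% in PC and 0% and 0.546% in HC, which overlap. These sums carry no test, and the H3K36me3 lists themselves were 481 to 612 Mb long in PC and 379 and 475 Mb in HC. On chromosome 3 the values were 0%, 14.3% and 19.1% in PC and 0% and 1.59% in HC, which overlap.

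Genes that act on the histone genes carried the active marks and H3K36me3. Of 22 factors of histone gene expression (NPAT, SLBP, cleavage and cap-binding proteins, cyclins and others), 22 had H3K4me3, H3K9ac, H3K27ac and H3K36me3 in all 5 libraries, and none was called between PC and HC. Npat had H3K4me3 of 80%, 85% and 70% in PC and 80% and 65% in HC, and H3K36me3 over 84.7% ± 12.2 of its gene in PC (SD, n = 3) and 89.9% ± 2.92 in HC (SD, n = 2). Slbp, the stem-loop binding protein, had H3K4me3 of 58.8% ± 8.01 and 55.7% ± 7.07 and H3K36me3 of 89.0% ± 11.1 and 89.0% ± 0 in the same order. For H3K4me3, Hinfp had 43.3% ± 2.89 and 40% ± 0, Casp8ap2, which acts with NPAT, 58.3% ± 2.89 and 55% ± 0, and Lsm11 of the U7 particle that cuts histone transcripts 41.7% ± 2.89 and 47.5% ± 10.6. None of the 5 was called, and the H3K4me3 libraries of PC and HC overlapped or shared a value at each.

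Histone genes listed beside the members, most of them replication-independent with products that can be used outside S phase, were mixed in H3K36me3. The list of 13 holds H2aw and H2bu2, whose older RefSeq names begin with Hist3, a prefix in the member rule. The rule was read on current symbols, so they were not members, and the list is not purely replication-independent. All 13 had H3K4me3 in all 5 libraries, 7 had H3K36me3 in all 5 and 4 in none, and none was called. H3f3a had H3K4me3 of 79.9% ± 5 in PC (SD, n = 3) and 82.4% ± 3.54 in HC (SD, n = 2) and H3K36me3 over 87.9% ± 4.18 and 89.1% ± 5.12 of the gene. H3f3b, which encodes the same H3.3 protein, had H3K4me3 of 47.4% in each library and H3K36me3 of 50.01% in each. H2az1 had H3K36me3 of 54.3%, 0% and 87.1% in PC and 21.4% and 67.2% in HC, and H1f0, the linker histone of resting cells, had H3K4me3 of 81.9% ± 12.4 and 77.8% ± 3.54 with no H3K36me3 in any library. Of 20 S phase genes, 20 had the 3 active marks and H3K36me3 in all 5 libraries, and 1 was called, Pola1, a DNA polymerase subunit gene on the X chromosome, whose H3K27me3 was 0% in PC and 93.9% and 80% in HC (limma adjusted p = 0.0205). Sex of the embryos was not tested.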

How the data were processed

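Of 41 ChIP-seq samples, 30 were used (3 PC and 2 HC libraries for each of 6 marks), and 11 IgG samples were not analysed here. The authors deposited region coordinates per library, without scores or counts, so read depth is unknown and no counting interval can be given. FastQC, Picard and mm10 appear in the submitters' processing notes. Neither the aligner, the region caller nor the treatment of reads from repeated sequence was stated there or in the labels. Region starts lie on grids of 200 bp for the active marks and 800 bp for the others. From the regions, the covered percent of each promoter window or gene body of 21887 protein-coding genes was computed (Python 3.11.15). PC and HC were compared with limma 3.58.1 (R 4.3.3, trend and robust) among genes covered in at least 2 of 5 libraries, with Benjamini-Hochberg adjustment over all of them at 0.05, and the procedure was tested on simulated data. Bodies counted as marked at 25% coverage. For genes without a listed start, the gene end with H3K4me3 in at least 1 library was used (2349 genes, H2bc4 among them). Both ends were used where that picked neither or both (2046 genes). Measured H3K4me3 thus helped to place these promoters, and their H3K4me3 counts and the shares over all genes depend partly on that choice. Alternatives were stricter marking, equal list length, a window of 500 bp, a log2 scale, no filter, autosomes alone and leaving out each library. Genes named by rule were members called or PC-only or HC-only, those with H3K4me3 in fewer than 5 libraries, H1f1 to H1f6, H2ac1, H2bc1, the first and last member of each cluster, list genes with a call, and Npat, Slbp, Hinfp, Casp8ap2, Lsm11, H3f3a, H3f3b, H2az1 and H1f0. Every other gene given with values, including H2bc14, H2bc15, H4c4, H2bc6, H3c15 and their like, was chosen after its values were seen. The members and lists were chosen with earlier results of these data known.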

Additional observations from a re-analysis of the deposited data

How the results depend on the processing

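Across 205 alternatives over 24 counts, 189 stayed within 1.5 times the reported count, which includes counts of 0 that stayed 0. With marking at 50% of the window, the members marked in all 5 libraries numbered 30 for H3K4me3, 35 for H3K9ac and 30 for H3K27ac, and at equal list length 28, 29 and 24. With the 500 bp window they numbered 51, 52 and 43. These alternatives were counted for the members alone, so no share of all genes stands beside them. Stricter marking also made H2bc9 PC-only for H3K9ac (1 member) and H2bc9 and H3c15 for H3K27ac (2 members). With the 500 bp window H2bc14 was PC-only and called lower by limma for H3K27ac (1 member each, beside 27 genes called lower of 13242). The cause of these changes was not tested. The share of all genes that turned PC-only under each alternative was not computed, so the PC-only counts are no result about the members. By limma, 60 of 61 alternatives called 0 members. No member was tested in any H3K27me3 alternative, nor in any for H3K9me3 except without the filter (3 members), so those without a member could call none.

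Leaving out 1 library left the H3K4me3 count of members marked in all remaining libraries at 56 to 58, the H3K9ac count at 55 to 56, the H3K27ac count at 54 to 56 and the others at 0 to 0. PC-only members ranged from 0 to 2 for H3K4me3 (H4c18 and H2ac24 without HC2), 0 to 1 for H3K9ac (H2bc14 without HC2), 0 to 2 for H3K27ac (H4c17 and H4c18 without PC5, H2ac12 and H2bc12 without HC7) and 0 to 1 for H3K36me3 (H2ac1 without PC4, H1f6 without PC6). The share of all genes with this pattern when a library is left out was not computed, so these members are no result. HC-only members and limma calls stayed at 0 to 0 in all marks, although no member was tested by limma for H3K27me3 or H3K9me3.

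For H3K9ac, replicate numbers 2 and 3 occur in both labels, and a replicate block called 0 members. Same-numbered libraries deviated with correlations of -0.0216 and 0.0604 over 13505 genes. With 2 HC libraries their deviations from the mean mirror each other, so these values cannot decide whether same-numbered libraries are paired. The labels do not say it either. No paired analysis was possible for the other marks because PC and HC share fewer than 2 replicate numbers. Read depth is unknown, so what it limits could not be measured.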
